A study of Mus musculus with 12 samples.

Results

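The chemokines and chemokine receptors described here are those left once the interferon-induced Cxcr3 ligands, the lymphoid tissue chemokines, and the ligands and receptors of T helper 2 cells are set aside. They were chosen by name: every gene probe whose array name begins with Ccl, Cxcl, Cx3cl, Xcl, Ccr, Cxcr, Cx3cr or Xcr and a digit was taken, without Cxcl9, Cxcl10, Cxcl11, Cxcr3, Cxcl13, Ccl19, Ccr7, Cxcr5, Ccl17, Ccl22, Ccl24, Ccr4 and Cxcr6, and the brightest probe stood for each gene. This gave 38 genes reported here of 27675 gene names on the array, and 35 of them were bright enough to test, among 20323 genes tested in all. Ccr8, Ccr10 and Ccr1l1 were too dim. The array names Cxcl4, Cxcl7 and Ccl27 are the genes now called Pf4, Ppbp and Ccl27a.

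RNA from 8 mouse mammary tumors labelled ShcA-null was hybridised together with RNA of a pool of NIC mammary tumors on 12 two-colour oligonucleotide arrays. NIC tumors express an activated form of Neu, the rodent ErbB2 receptor, together with Cre recombinase from the mammary promoter of a mouse tumor virus, and the tumors labelled ShcA-null are described as NIC tumors as well, so Neu and Cre are shared by both RNAs. ShcA, the product of Shc1, is an adaptor between receptor tyrosine kinases and Ras. The sources used here give no age, strain, deleted part of Shc1 or number of tumors in the pool. They do not state that the 8 tumors came from separate animals, so each p-value rests on the spread between these samples, which may be technical. The pool counts as 1 control sample, and the spread between control tumors is not in any test. In whole tumors, fewer cells of a type and less RNA per cell cannot be told apart.

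Chemokines are small secreted proteins that bind G protein-coupled receptors on leukocytes and draw these cells along a gradient. Inflammatory CC ligands act mainly on monocytes, eosinophils and T cells, and CXC ligands with a Glu-Leu-Arg (ELR) motif act on neutrophils through Cxcr2, while homeostatic ligands guide cells within healthy epithelium and lymphoid organs. In mammary tumors both the malignant epithelium and the stroma can make them, and Ccl2 is well known for the recruitment of monocytes.

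Many inflammatory chemokine genes are controlled by NF-kB, so the 250 bases before the start site were searched for the letters GGGNNTTTCC, a narrow form of its binding motif, on both strands. Of the 38 genes, 29 had 1 or more promoters in RefSeq's table for build GRCm38.p6, 33 promoters in all. Ccl2, Ccl4, Ccl5, Ccl7, Ccl11, Ccl21c, Ccr10, Cxcl5 and Cxcl16 had no entry and were not searched. Of the 29 genes, 5 (Ccl9, Ccl20, Ccr3, Cxcl1 and Cxcl2) held the motif. It was in 1.41% of all 32851 promoters in that table, a share of promoters and not of genes. A match describes letters only. The promoters of the neutrophil attractants Cxcl1 and Cxcl2, of Ccl20, and of the neighbouring genes Ccl9 and Ccl6 are shown because the ratios of these genes are set side by side below, and that of Cxcl14 because it had the largest mean of the members. Capitals mark the motif on either strand, and each sequence reads 5′ to 3′ along the gene's strand and ends 1 base before the start site. Cxcl1 (chr5:90890995-90891244, plus strand) and Cxcl2 (chr5:90903649-90903898, plus strand) each held 2 copies, beginning 89 and 71 bases before the start in Cxcl1 and 97 and 78 bases before it in Cxcl2. Ccl20 (chr1:83116516-83116765, plus strand) held 1, beginning 80 bases before the start, and Ccl9 (chr11:83578637-83578886, minus strand) held 1, beginning 35 bases before it. Ccl6 (chr11:83593088-83593337, minus strand) and Cxcl14 (chr13:56296552-56296801, minus strand) had no match in this window.
Cxcl1: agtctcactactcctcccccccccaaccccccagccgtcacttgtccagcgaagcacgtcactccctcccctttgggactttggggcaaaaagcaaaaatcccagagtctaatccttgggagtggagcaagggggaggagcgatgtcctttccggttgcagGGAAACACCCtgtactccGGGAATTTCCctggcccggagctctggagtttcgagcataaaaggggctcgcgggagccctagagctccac
Cxcl2: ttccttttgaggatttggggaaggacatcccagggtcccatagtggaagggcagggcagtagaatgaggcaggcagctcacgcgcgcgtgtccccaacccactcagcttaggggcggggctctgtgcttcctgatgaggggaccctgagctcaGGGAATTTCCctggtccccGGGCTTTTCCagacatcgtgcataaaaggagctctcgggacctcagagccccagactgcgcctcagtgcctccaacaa
Ccl20: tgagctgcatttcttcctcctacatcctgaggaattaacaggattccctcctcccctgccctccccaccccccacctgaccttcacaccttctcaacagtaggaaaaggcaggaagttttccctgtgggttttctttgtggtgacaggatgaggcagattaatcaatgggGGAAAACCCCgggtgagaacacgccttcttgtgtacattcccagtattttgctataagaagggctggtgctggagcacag
Ccl9: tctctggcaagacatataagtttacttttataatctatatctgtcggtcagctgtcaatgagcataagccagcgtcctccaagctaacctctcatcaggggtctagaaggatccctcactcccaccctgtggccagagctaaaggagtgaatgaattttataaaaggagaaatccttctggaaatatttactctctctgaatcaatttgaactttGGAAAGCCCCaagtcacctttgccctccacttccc
Ccl6: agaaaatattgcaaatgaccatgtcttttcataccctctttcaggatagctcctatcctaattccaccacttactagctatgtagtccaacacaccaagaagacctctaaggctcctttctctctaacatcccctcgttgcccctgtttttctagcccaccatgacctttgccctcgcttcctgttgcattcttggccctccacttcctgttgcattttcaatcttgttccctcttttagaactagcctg
Cxcl14: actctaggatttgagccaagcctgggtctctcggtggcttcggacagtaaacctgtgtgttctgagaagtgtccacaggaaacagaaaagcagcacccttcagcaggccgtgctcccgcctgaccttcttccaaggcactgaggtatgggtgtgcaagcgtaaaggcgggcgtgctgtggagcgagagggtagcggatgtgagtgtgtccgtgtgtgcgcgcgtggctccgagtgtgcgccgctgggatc

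On the first array of each tumor the tumor RNA carried Cy5, and 4 further arrays, labelled as tumors 1 to 4, had the dyes swapped. These swapped arrays went against their labels. Over 30838 probes, the array labelled tumor 1 correlated best with the first array of tumor 1 (r = 0.44), but the arrays labelled 2, 3 and 4 correlated best with tumors 3, 4 and 8 (r = 0.82, 0.39 and 0.68, against 0.14, 0.13 and 0.29 with their own labels). Values by tumor are therefore those of the first arrays, and each called member is given with and without the swapped arrays. The first array of tumor 6 stood apart (median r of 0.05 with the other first arrays, against 0.30 to 0.67 for the other tumors). The Shc1 probe had a median log2 ratio of 0.31 on the first arrays and was low in tumor 3 alone, at -2.05, where the next lowest was -0.03. Shc1 RNA thus lay level with the pool or above it in all but 1 tumor. Whether the probe lies in the deleted part of Shc1 is not known, and a probe outside it would check nothing, so these values do not test the label. Of 13 mammary epithelial markers, 13 were well above background in the tumor RNA on all 12 arrays.

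**Figure D1:**
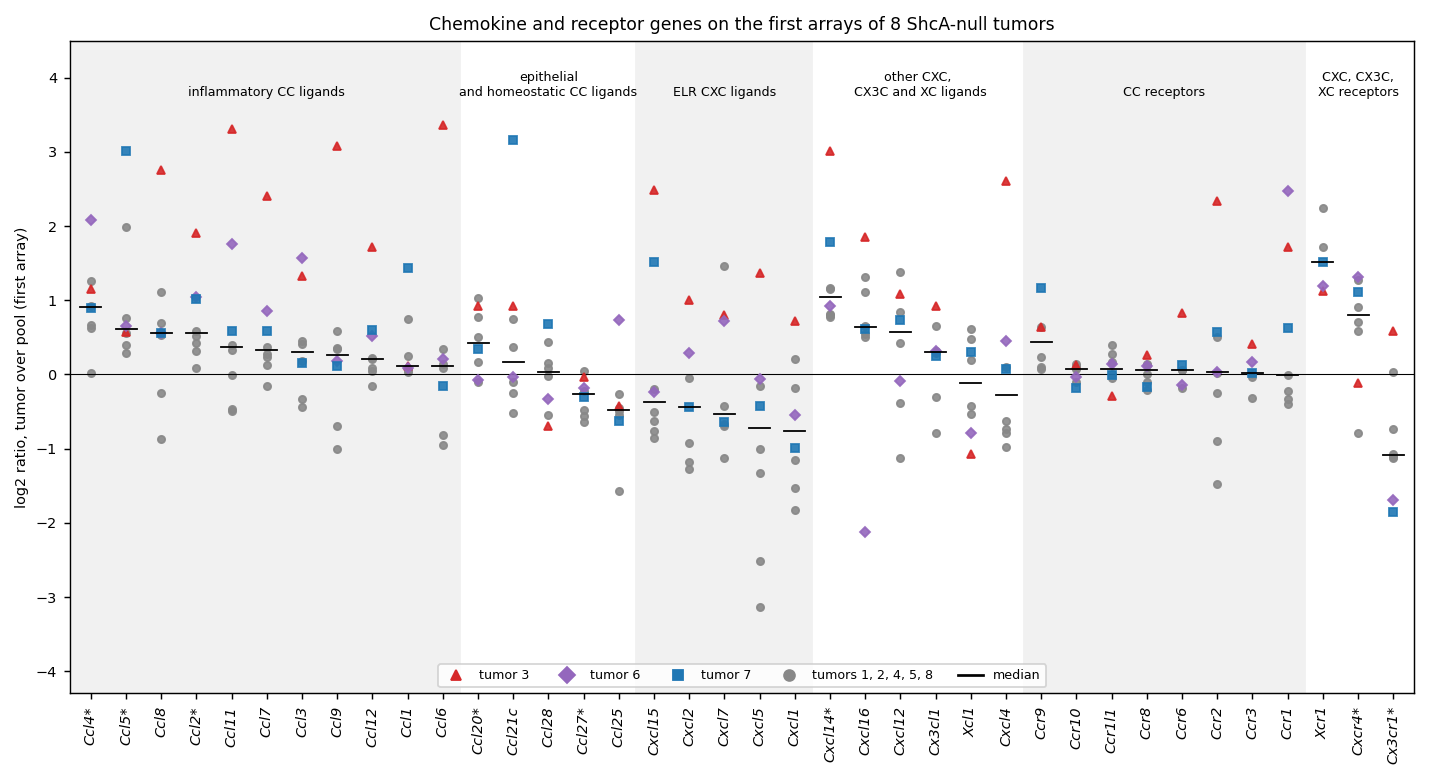
Log2 ratio of tumor over pool on the first array (vertical axis) for the 38 members, grouped by role along the horizontal axis; each point is 1 tumor, the bar is the median, and a star marks the members called in the fit of 8 tumors. Tumor 3 (red triangles) lies at the top of most columns, tumor 7 (blue squares) tops Ccl5 and Ccl21c at 3.01 and 3.16, and Cxcl5 reaches down to -3.14.

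Averaging all arrays of a labelled tumor, 6 members were called higher than the pool (limma, adjusted p under 0.05 over all genes): Ccl2, Ccl4, Ccl5, Ccl20, Cxcl14 and Cxcr4. This was 6 of 35 where 6.66% of all genes were called higher. Where a swapped array matched another tumor best, such an average may mix RNA of different tumors. The within-pair correlation was -0.04 for labelled pairs and 0.93 for best-matching pairs. The SD and p-values of the fit of 8 tumors may therefore understate the spread between tumors. Cx3cr1 and Ccl27 were called lower, 2 of 35 where 10.5% of all genes were. On the first arrays alone, 5 were called higher (Ccl2, Ccl4, Ccl5, Cxcl14 and Xcr1), beside 8.33% of all genes, and Cx3cr1 was the 1 called lower, beside 13.2%. A model over the 12 arrays that included the dye, with each swapped array paired to the first array it matched best, called 5 higher and 2 lower, beside 3.61% and 4.53% of all genes. Without tumor 3, the first arrays again called 5 higher, the same genes, beside 7.85% of all genes, and 2 lower, Cx3cr1 and Cxcl1, beside 13.5%. The other 27 members did not pass in the fit of 8 tumors. The median of the members' mean log2 ratios was 0.33, where that of all genes was -0.02, and 15 of 35 had an unadjusted p under 0.05, where 33.2% of all genes did. Of 28 members measured on all 8 first arrays, 4 had a single sign throughout (Ccl2, Ccl4, Ccl5 and Cxcl14), which is near the 18.3% of all genes.

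**Figure D2:**
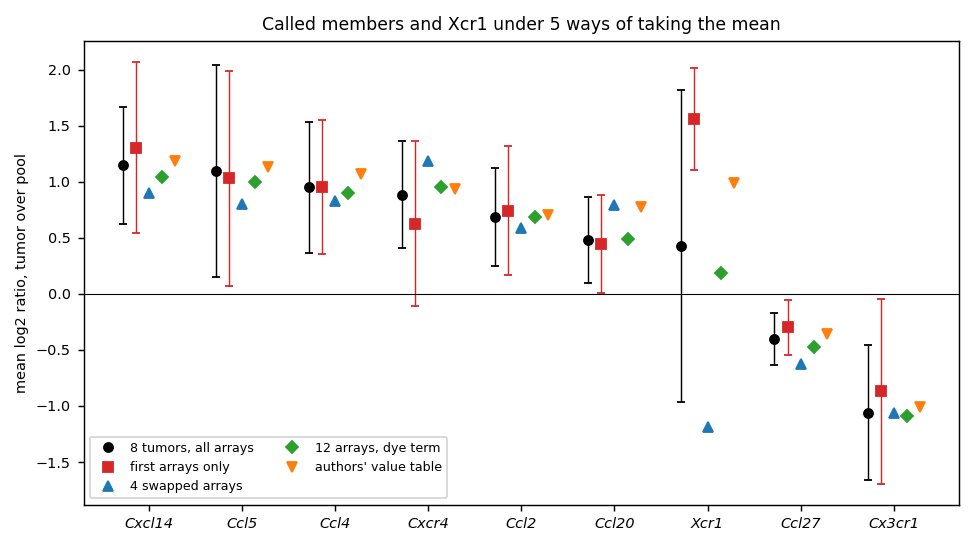
Mean log2 ratio of tumor over pool (vertical axis) of the 8 called members and Xcr1 by 5 ways of taking the mean; error bars are the SD over the tumors and are drawn for the fit of 8 tumors and for the first arrays. The called members keep their side of 0 in each, and Xcr1 is at 1.56 on the first arrays and at -1.19 on the swapped arrays.

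The inflammatory CC ligands, the role with the most genes, held the most calls. Of 11 genes, 3 rose (Ccl2, Ccl4 and Ccl5), beside 6.66% of all genes, and none fell, beside 10.5%. The 11 means lay between 0.22 and 1.09 with a median of 0.53. All stayed positive under each other normalization, with role medians of 0.54 to 0.78. Only 9 of 11 were positive in tumors 5 to 8 alone, and 9 of 11 on the first arrays without tumor 3, with a median of 0.33. Ccl5 (RANTES), a ligand of Ccr1 and Ccr3 that draws T cells and monocytes, had the largest mean of this role. In tumors 1 to 8 it gave log2 ratios of 0.29, 0.77, 0.58, 0.56, 0.40, 0.65, 3.01 and 1.99. Tumors 7 and 8 were thus far above the other six, which lay between 0.29 and 0.77, and no tumor was below the pool. Its mean was 1.09 ± 0.94 (SD, n = 8; 2.13-fold; limma adjusted p = 0.0327), and 1.03 ± 0.96 on the first arrays alone (adjusted p = 0.0374). The call was lost when the arrays labelled tumor 2, 3, 4 or 8 were left out, with means of 0.97 to 1.17 and adjusted p-values of 0.0503 to 0.0816. Since swapped arrays went against their labels, leaving out a label need not remove all RNA of that tumor. In tumor 7 the median of the T and NK cell markers was 1.98 and that of the B cell markers 3.54, both the highest of the 8 tumors, but in tumor 8 they were 0.11 and 0.34; their part in the level of Ccl5 was not tested.

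Ccl4 (MIP-1 beta), made by activated macrophages and T cells, gave 0.67, 0.92, 1.16, 0.63, 0.01, 2.08, 0.90 and 1.26 in tumors 1 to 8. Tumor 6 was highest and tumor 5 was level with the pool. Its mean was 0.95 ± 0.59 (SD, n = 8; 1.93-fold; limma adjusted p = 0.0111), with 0.95 ± 0.60 and an adjusted p of 0.00914 on the first arrays. Ccl2 (MCP-1), the main ligand of Ccr2 on monocytes, was printed on 10 spots of the array, which agreed closely on each array (SD between spots of 0.04 to 0.11). It gave 0.32, 0.58, 1.91, 0.43, 0.52, 1.05, 1.02 and 0.09. Tumor 3 was highest, and all 8 were above the pool on these arrays, although tumor 8, the lowest, was nearly level with it. The swapped array that matched tumor 8 best gave -0.04. The mean was 0.69 ± 0.44 (SD, n = 8; 1.61-fold; limma adjusted p = 0.0154), 0.74 ± 0.57 with an adjusted p of 0.0234 on the first arrays, and 0.57 with an adjusted p of 0.0212 on the first arrays without tumor 3. The probes of Ccl2, Ccl4 and Ccl5 lie on chromosome 11 of mouse build mm7, at chr11:82118723-82118782, chr11:83734455-83734514 and chr11:83595850-83595905.

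Ccl6 and Ccl9, macrophage-derived ligands of Ccr1 whose genes lie next to each other, and Ccl8 (MCP-2) differed more between tumors than from the pool. Ccl6 had the highest signal of all members. Its first-array log2 ratios ran from -0.95 (tumor 1) through a median of 0.11 to 3.36 (tumor 3), and its mean was 0.22 ± 0.96 (SD, n = 8; limma adjusted p = 0.626). Ccl9 was lowest in tumor 1 and highest in tumor 3 at 3.08, with a median of 0.26 and a mean of 0.32 ± 0.93 (adjusted p = 0.464). In both genes tumor 3 stood alone at the top, the next tumor being at 0.35 and 0.59, and tumors 1 and 5 were lowest. Without tumor 3, the first-array means were -0.16 for Ccl6 and -0.02 for Ccl9. Ccl8 ran from -0.87 (tumor 8) through 0.56 to 2.76 (tumor 3), with a mean of 0.52 ± 0.91 (adjusted p = 0.228). The other 5 ligands of this role, Ccl1, Ccl3, Ccl7, Ccl11 and Ccl12, had means of 0.33 to 0.76 and did not pass. Of these, Ccl11 (eotaxin), which draws eosinophils through Ccr3, had the largest value, 3.31 in tumor 3, and was 1.77 in tumor 6 and at most 0.59 in the other tumors.

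Among the receptors of these ligands, Ccr1, which binds Ccl3, Ccl5, Ccl6 and Ccl9, ran from -0.39 to 2.47 with a median of -0.01 over 7 first arrays, with tumor 6 at 2.47 and tumor 3 at 1.73. Its mean was 0.98 ± 1.28 (SD, n = 8; limma adjusted p = 0.116), and 0.55 on the first arrays (adjusted p = 0.309). In the mean over 8 tumors, the value for tumor 2 was the swapped array of that label alone. That array gave 3.20 and matched tumor 3 best. Ccr2, the receptor of Ccl2, Ccl7 and Ccl12, ran from -1.47 (tumor 8) through 0.03 to 2.34 (tumor 3), with a mean of 0.28 ± 1.14 (adjusted p = 0.603). A dimmer Ccr2 probe gave 0.90, and the probes parted most in tumor 6, at 0.04 and 2.25. Ccr3, the eotaxin receptor, was dim and stayed between -0.32 and 0.41 (adjusted p = 0.446). None of the 5 CC receptors tested was called by limma, beside 6.66% of all genes called higher and 10.5% lower. An unadjusted p under 0.05 was found for 2 of them, near the 33.2% of all genes. The means of the 5 lay between 0.02 and 0.98, but 2 of 5 were positive in tumors 5 to 8 alone, and 2 of 5 on the first arrays without tumor 3.

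Of the 5 epithelial and homeostatic CC ligands, 1 was called higher and 1 lower, beside 6.66% and 10.5% of all genes, and both calls were weak. Ccl20, which draws Ccr6-bearing dendritic cells and T cells to epithelium and whose promoter carries 1 motif above, was dim, with a signal well over background on 10 of 12 arrays in tumor RNA and 1 of 12 in the pool. Its first-array values were 1.03, 0.50, 0.93, 0.16, -0.11, -0.07, 0.34 and 0.77. Tumors 5 and 6 were just under the pool and the other six above it. The mean was 0.48 ± 0.38 (SD, n = 8; limma adjusted p = 0.0407), and the first arrays alone did not pass (0.44, adjusted p = 0.0673). The brightness filter kept this probe through the tumor RNA, which favours a higher ratio, so the call itself is uncertain. With both channels required above background on every array, Ccl20 was not tested. That setting called 5 of 25 members higher, beside 1066 of 15397 genes. With the pool near background the size is uncertain too, and the mean ran from 0.23 to 1.44 over the alternatives. Its receptor Ccr6 stayed between -0.19 and 0.12 except in tumor 3, at 0.83, and had a mean of 0.02 ± 0.21 (SD, n = 7; adjusted p = 0.928). Ccl27, an epithelial ligand of Ccr10, gave 0.04, -0.23, -0.03, -0.64, -0.56, -0.19, -0.31 and -0.48. Tumor 1 was level with the pool and tumor 4 lowest. The mean was -0.40 ± 0.23 (SD, n = 8; limma adjusted p = 0.0246), and the call was lost on the first arrays (-0.30, adjusted p = 0.0761), under median centring, with Feature Extraction's ratios and in the authors' value table. Ccr10 itself was well above background in tumor RNA on 2 of 12 arrays and was not tested. Ccl25, Ccl28 and Ccl21c did not pass, and Ccl21c, a lymphoid tissue ligand, lay between -0.52 and 0.93 in 7 tumors and at 3.16 in tumor 7, where the B cell markers were high.

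Of the 5 ELR CXC ligands, which attract neutrophils, limma called none, beside 6.66% of all genes called higher and 10.5% lower. An unadjusted p under 0.05 was found for 1 of them, where 33.2% of all genes had it. The median of their means was -0.23 over the 8 tumors, the lowest of the 6 roles in that fit, and -0.37 on the first arrays. It was 0.28 on the swapped arrays alone and -0.04 in the model with the dye, where the epithelial and homeostatic CC ligands were at -0.12. Cxcl5 had the widest range of all members, 4.51, with -3.14, -0.16, 1.37, -1.01, -2.52, -0.06, -0.43 and -1.32 in tumors 1 to 8. Tumor 3 alone was above the pool, and tumors 1 and 5 were far below it. Its mean was -0.68 ± 1.16 (SD, n = 8; limma adjusted p = 0.214), and -1.23 with an adjusted p of 0.0542 on the first arrays without tumor 3. Cxcl1, whose promoter above holds 2 copies of the motif, was below the pool in 6 of 8 tumors, from -1.83 (tumor 1) through -0.77 to 0.72 (tumor 3), with a mean of -0.52 ± 0.62 (SD, n = 8; adjusted p = 0.106). It was called lower on the first arrays without tumor 3. Cxcl2, likewise with 2 copies, ran from -1.28 (tumor 5) through -0.44 to 1.00 (tumor 3) over 7 tumors. Cxcl7 and Cxcl15 had means of 0.06 and 0.16. Of 10 neutrophil markers tested, 3 rose against the pool (S100a8, Fpr2 and Retnlg, means of 1.70, 1.12 and 1.03), beside 6.66% of all genes, and none fell. On the first arrays and in the model with the dye Retnlg did not pass (adjusted p = 0.0684 and 0.0523), which left 2. Across tumors both medians were highest in tumor 3, at 1.00 for the ELR ligands and 2.08 for the markers, and next in tumor 6, at -0.06 and 0.97. The markers' summed normalized intensity was 4924 to 22881 in tumor RNA and 3611 to 4395 in the pool, with Elane at background on every array. The neutrophil receptor Cxcr2 was near background, well above it on 5 of 12 arrays in tumor RNA and 2 of 12 in the pool, and had a mean of 0.29 ± 0.25 (SD, n = 8; limma adjusted p = 0.0835).

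Cxcl14, made by epithelium and fibroblasts, had the largest mean of the members and was the 1 gene called higher among the 6 other CXC, CX3C and XC ligands. Its log2 ratios were 0.81, 1.17, 3.01, 1.16, 0.78, 0.92, 1.78 and 0.81 in tumors 1 to 8. Tumor 3 was highest, and the lowest tumor still had 0.78. The mean was 1.15 ± 0.52 (SD, n = 8; 2.21-fold; limma adjusted p = 0.00378), with 1.30 ± 0.76 and an adjusted p of 0.00613 on the first arrays, and 1.06 and 0.00216 on the first arrays without tumor 3. Its probe (chr13:55377968-55378027, mm7) gave a signal well over background in tumor and pool on all 12 arrays. Of the other 5, Cxcl4 (platelet factor 4), Cxcl12, Cxcl16, Cx3cl1 and Xcl1 had means of -0.22 to 0.50 and did not pass. Cxcl12 (SDF-1), the stromal ligand of Cxcr4, was read by 2 bright probes that the file assigns to different transcripts. The brighter one gave 0.33 ± 0.72 and the other 1.22 ± 0.72 (SD, n = 8), with adjusted p-values over all probes of 0.366 and 0.00925. The dimmer probe was chosen for mention after its value was seen, and on the first arrays the gap was widest in tumor 6, at -0.08 against 1.67; the swapped array labelled tumor 3 gave -0.51 and 1.60. Cx3cl1 (fractalkine), the ligand of Cx3cr1, had a mean of 0.24 ± 0.50, and a dim second probe gave -0.61.

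The 3 tested receptors of the CXC, CX3C and XC classes went in different directions. Cxcr4, the receptor of Cxcl12 on leukocytes and many carcinoma cells, gave 0.59, -0.79, -0.11, 0.90, 1.28, 1.31, 1.11 and 0.71 in tumors 1 to 8. Tumors 2 and 3 were below the pool and the others above it. Its mean was 0.89 ± 0.48 (SD, n = 8; 1.85-fold; limma adjusted p = 0.0074), but 0.63 ± 0.74 with an adjusted p of 0.0871 on the first arrays. It was the 1 member called higher on the swapped arrays alone. On the first arrays a second Cxcr4 probe followed it except in tumor 6, at -2.23 against 1.31. On each swapped array the second probe was lower, with a mean of 0.38 against 1.19, and at -0.68 against 0.48 on the array labelled tumor 2. The second probe had a mean of 0.37 ± 1.20 (SD, n = 8; limma adjusted p over all probes = 0.532). The call was lost when probes were averaged. Cx3cr1, the fractalkine receptor of patrolling monocytes and tissue macrophages, fell: -1.11, 0.03, 0.58, -0.74, -1.08, -1.69, -1.85 and -1.12. Tumors 2 and 3 were not below the pool, and tumors 6 and 7 were lowest. The mean was -1.06 ± 0.60 (SD, n = 8; limma adjusted p = 0.00784), and -0.87 ± 0.82 with an adjusted p of 0.0416 on the first arrays. On the first arrays without tumor 6 it was -0.75 (adjusted p = 0.0669). The first-array means were -0.31 in tumors 1 to 4 and -1.43 in tumors 5 to 8, which lay on different slides. A dimmer Cx3cr1 probe gave 0.02 ± 0.21 (SD, n = 7), so the decrease was seen by 1 of 2 probes.

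Xcr1, the receptor of cross-presenting dendritic cells, is shown by its probe because its ratio had opposite signs on the first and the swapped arrays, which differ in both dye and slide. The probe lies at chr9:123574844-123574903 of mm7, is printed here without capitals, and has 41.7% G and C, where the 51 member probes have 21.7% to 55.0%.
Xcr1 probe: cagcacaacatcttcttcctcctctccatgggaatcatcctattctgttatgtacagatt

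On the 5 first arrays that measured it, Xcr1 gave 1.12, 2.25, 1.20, 1.52 and 1.72 (tumors 3, 5, 6, 7 and 8), and on the swapped arrays labelled 1 to 4 it gave -1.35, -0.93, -1.79 and -0.67. Every first array was above the pool and every swapped array below it. The spots of tumors 1, 2 and 4 carried an outlier flag and were left out, so the 8-tumor value of those tumors is the swapped array alone. The mean was 1.56 ± 0.45 on the first arrays (SD, n = 5; limma adjusted p = 0.0036), 0.42 ± 1.39 over 8 tumors (adjusted p = 0.514) and 0.19 in the model with the dye (adjusted p = 0.606). It was 0.96 with outlier spots kept and 0.99 by the authors' deposited values, and both were called (adjusted p = 0.0355 and 0.0375). A second, dim Xcr1 probe stayed between -0.29 and 0.68 on the arrays that measured it.

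**Figure D3:**
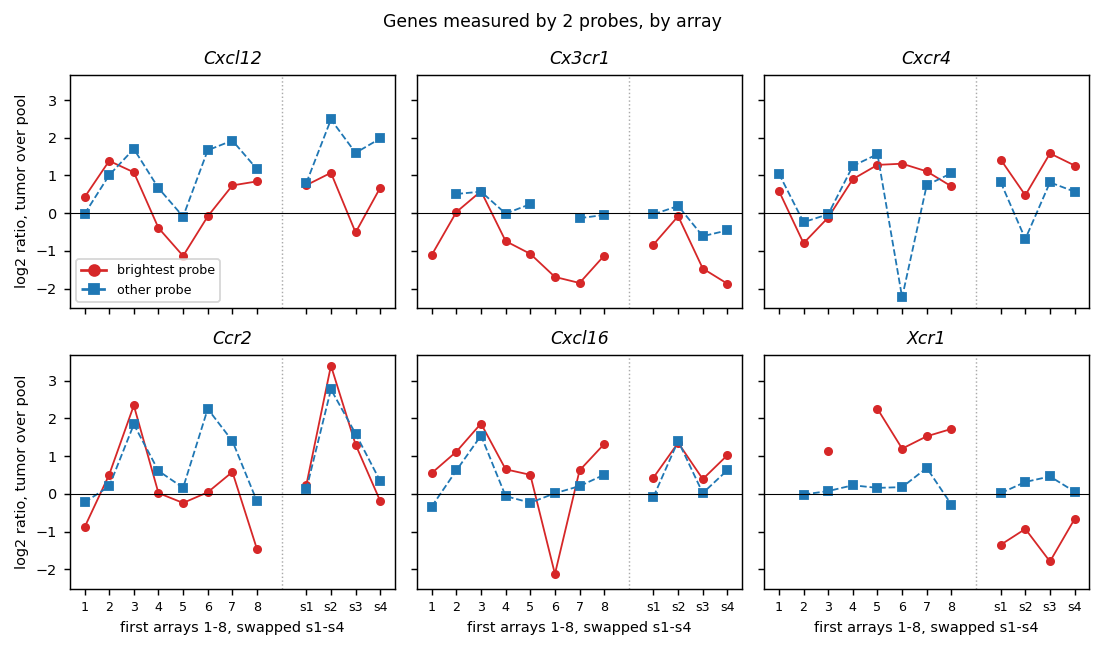
Log2 ratio of tumor over pool (vertical axis) by array (horizontal axis, first arrays 1 to 8 and swapped arrays s1 to s4 by label) for 6 genes read by 2 probes; red circles are the brighter probe and blue squares the other. The bright Xcr1 probe lies above 0 on the first arrays and below 0 on the swapped arrays, and, of the first arrays, tumor 6 parts the probe pairs of Cxcr4, Ccr2, Cxcl12 and Cxcl16 most.

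Across the 28 members measured on all 8 first arrays, tumor 3 was highest for 16, where it was highest for 23.2% of all genes. In that tumor 19 of 35 members had a log2 ratio over 1, against 13.6% of all genes, and 1 (Xcl1) was below -1. The swapped array that matched tumor 3 gave like values, for example 2.70 for Ccl6 and 2.87 for Ccl11, against 3.36 and 3.31. Tumor 1 was lowest for 7 members, near its 21.0% of all genes, and tumor 5 for 8, where it was lowest for 6.47% of all genes. The range over tumors had a median of 2.53 for the 28 members and 1.56 for all genes. The monocyte and macrophage, neutrophil, eosinophil and mast cell, fibroblast and endothelial marker lists were highest in tumor 3 by median. Those of T and NK cells, B cells, dendritic cells and mammary epithelium were highest in tumor 7, at 1.98, 3.54, 1.13 and 1.23. In tumor 3 these last lists were at 0.75, 0.72, 1.12 and 0.87. In tumor 3 the median was 1.98 for the monocyte and macrophage markers, 2.08 for the neutrophil markers, 2.50 for the eosinophil and mast cell markers and 3.42 for the fibroblast markers, and 15 of 16 macrophage and 10 of 10 fibroblast markers were over 1. On the other first arrays these medians were at most 0.27, 0.97, 1.07 and 0.83. The summed intensity of the macrophage markers was 200837 to 750466 in tumor RNA and 136643 to 260478 in the pool, and that of the fibroblast markers 171437 to 1034800 and 87071 to 444791. Defining eosinophil genes were at or near background, with Epx well above it on 0 and Prg2 on 2 of 12 arrays in tumor RNA. Epx, Prg2, Siglecf and Il5ra were not tested, so the eosinophil and mast cell medians came from the mast cell genes of that list alone. In tumor 3, 7 of these 8 genes were over 1, and Kit was at -1.78. The part of these cells in the chemokine values was not tested.

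**Figure D4:**
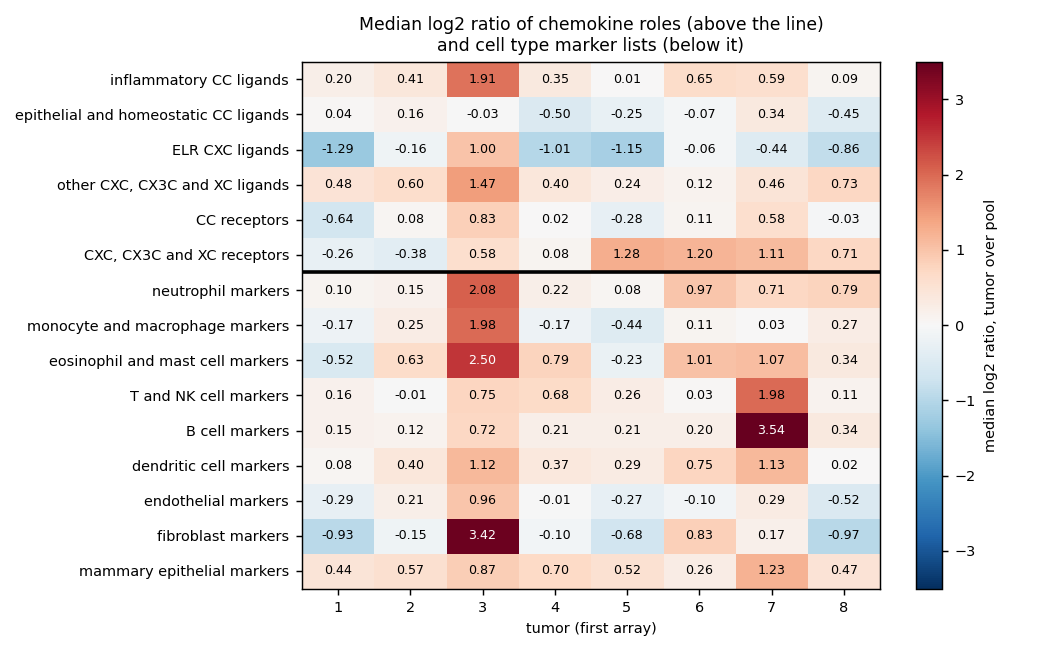
Median log2 ratio of tumor over pool on the first array of each tumor (columns, coloured and printed in each cell) for the 6 chemokine roles above the line and the 9 cell type marker lists below it. Tumor 3 is high for inflammatory CC ligands (1.91), macrophage (1.98) and fibroblast (3.42) markers, and tumor 7 for T and NK (1.98) and B cell markers (3.54).

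Many of the members lie side by side in the genome, and neighbours did not always share a pattern. On chromosome 11, Ccl2, Ccl7, Ccl11, Ccl12 and Ccl8 lie within 79.5 kb and were at 1.73 to 3.31 in tumor 3, while Ccl1, 139.7 kb from Ccl2, was at 0.11. In the second group on that chromosome, Ccl5 was at 0.58 in tumor 3, and Ccl9 and Ccl6, 1525.9 and 1539.7 kb from Ccl2, were at 3.08 and 3.36. Ccl3 and Ccl4, at 1599.0 and 1615.7 kb, were at 1.33 and 1.16. On chromosome 5, Cxcl4 and Cxcl15 were at 2.61 and 2.49 in tumor 3, and Cxcl5, Cxcl7, Cxcl1 and Cxcl2 between 0.72 and 1.37.

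**Figure D5:**
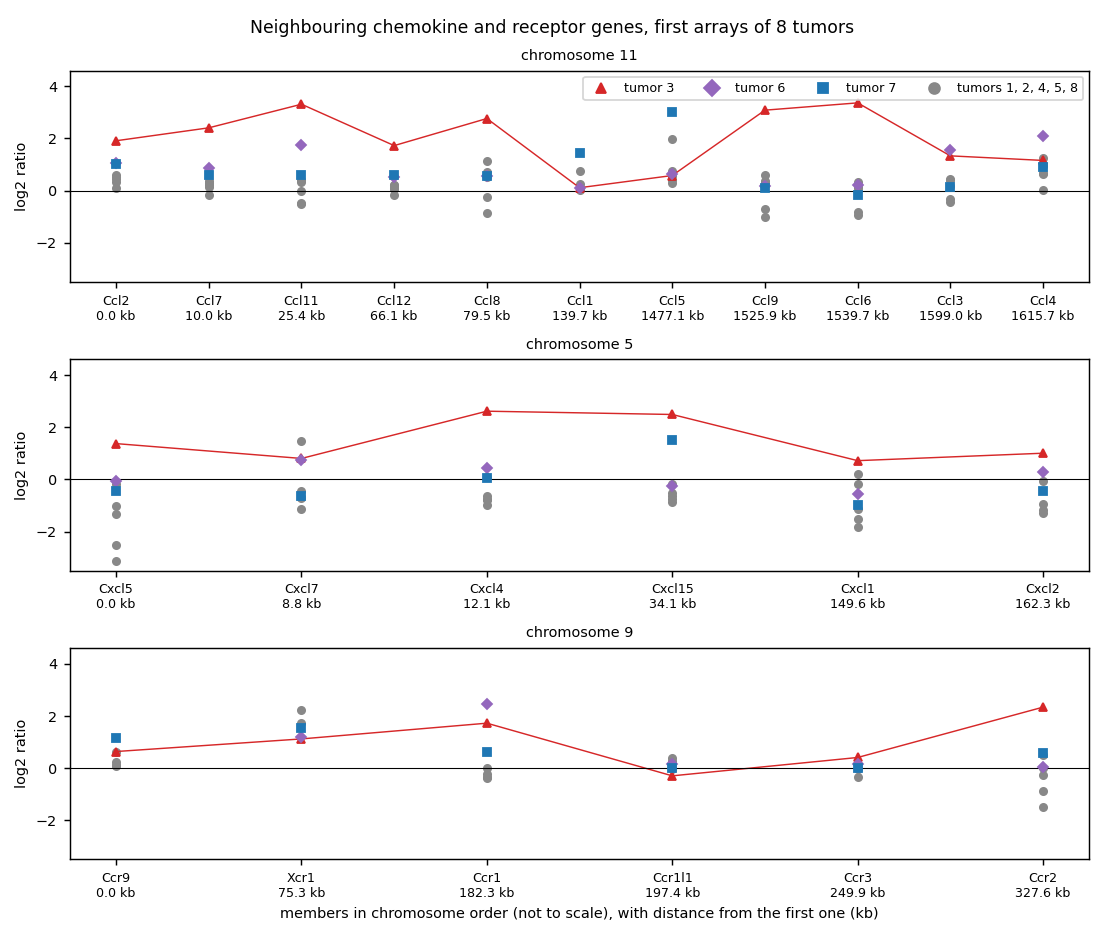
Log2 ratio of tumor over pool on the first arrays (vertical axis) for members that neighbour each other on chromosomes 11, 5 and 9, in chromosome order (horizontal axis, not to scale) with the distance in kb from the first member by mm7 probe position; each point is 1 tumor and the red line joins tumor 3. Tumor 3 is high for Ccl2 to Ccl8 and for Ccl9 and Ccl6, but not for Ccl1 or Ccl5.

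Genes that act with the chemokines were read from 4 lists. Of 22 genes of receptor signalling, 4 were called higher and 2 lower, with a median of 0.14, beside 6.66% and 10.5% of all genes. On the first arrays 2 were called higher and 2 lower, beside 8.33% and 13.2%, and Rgs16, Pik3r5 and Fgr lost the call (adjusted p = 0.0613, 0.0503 and 0.0633). Gng2, a G protein gamma subunit, was at 1.06 ± 0.72, and Rgs2, a brake on G protein signalling, at -1.53 ± 0.87 (SD, n = 8; limma adjusted p = 0.0144 and 0.0068), and both passed on the first arrays (0.0129 and 0.00361). The other gene called lower, Gnai3 (-0.49), turned to 0.08 under median centring. Of 14 genes of presentation and cleavage, Mmp12, the macrophage elastase that trims chemokines, rose (1.19 ± 0.92, adjusted p = 0.0216), and Dpp4, which clips the amino end of many chemokines, fell (-1.04 ± 0.84, adjusted p = 0.0264; SD, n = 8). These were the 1 gene called in each direction, near or below the shares of all genes, and both passed on the first arrays (adjusted p = 0.0364 and 0.0173). Of 20 upstream regulators, 3 rose, beside 6.66% of all genes, and none fell: Il1b (1.44 ± 0.73), Ifng (0.70 ± 0.47) and Il1a (0.57 ± 0.46; SD, n = 8; limma adjusted p = 0.00476, 0.0175 and 0.0351). Il1b was above the pool on every first array, from 0.60 (tumor 5) to 3.82 (tumor 3). On the first arrays alone Il1b and Ifng passed (adjusted p = 0.0181 and 0.0353) and Il1a did not (0.0824). For Ifng, tumor RNA exceeded background clearly on 9 of 12 arrays but the pool on 1 of 12, so its ratio was taken against a pool near background. The brightness filter kept the Ifng probe through the tumor RNA, which favours a higher ratio, so its calls are uncertain. Of 9 tested chemokine-related genes under other names, limma called none over the 8 tumors, beside 6.66% and 10.5% of all genes. An unadjusted p under 0.05 was found for 4, where 33.2% of all genes had it. The decoy receptor Ackr1 was at 0.70 ± 0.93, and the cytokine Mif was called higher on the first arrays alone (1.17, adjusted p = 0.0104) but was at 0.02 in the model with the dye.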

How the data were processed

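Per the labels' protocols, 500 ng of total RNA went through 1 T7 amplification round, and the tumor RNA and pool were hybridised to Agilent arrays. Per the file headers, Feature Extraction 9.5.3.1 read the spots and probe positions refer to mm7. The authors deposited mean foreground and median background intensities, flags (other values of 0 or 1) and a log10 ratio (red over green) per spot, and a table of log2 values already turned to tumor over reference (correlation 0.822 to 0.985 with the ratios used here). The sources used here do not state the normalization or centring of those values, so they served as an alternative, although the rule for the members names them; the column medians lay between -0.0715 and 0.137.

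From the intensities, normexp (offset 50) and loess came from limma 3.58.1 (R 4.3.3; files read through data.table, version 1.17.8). Control spots had weight 0, and spots with an outlier flag (0.47% to 13.7% an array) were left out. Probes were kept where either channel was well above background on an array of at least 4 tumors (30838 of 41174). Arrays of a labelled tumor were averaged (n = 8), and the mean was tested against 0 with lmFit and eBayes, Benjamini-Hochberg adjusted over all genes. The script was tested on simulated data. The number of arrays limits the precision. The first arrays lay on separate slides for tumors 1 to 4 and 5 to 8, and the swapped arrays on the last of 3 slides, so slide and dye cannot be told apart for these.

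Full values are given for members called in the fit of 8 tumors or of the first arrays, with a mean of at least 1 in size, with one of the 3 widest ranges or 3 highest signals, and for receptors of called ligands. Some results are not reported here. Members, lists and tests were chosen with earlier results of these data known.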

Additional observations from a re-analysis of the deposited data

Results flagged for a closer look

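On the first arrays of the 35 tested members, 9 had a tumor whose distance from the nearest other tumor was large for the range of the group (Dixon's test at the 95% level, which chance passes in about 1 of 20 groups). The share of all genes passing this test was not computed, so the count cannot be read as particular to the members. Tumor 3 was highest for 23.2% of all genes. In 7 of the 9 the tumor was tumor 3, above the others: Ccl6 was at 3.36 (next tumor 0.35), Ccl9 at 3.08 (0.59), Cxcl14 at 3.01 (1.78), Cxcl4 at 2.61 (0.45), Ccl7 at 2.41 (0.86), Ccl12 at 1.73 (0.60) and Ccr6 at 0.83 (0.12, over 6 tumors). The lymphoid tissue ligand Ccl21c was at 3.16 in tumor 7, where the next tumor was at 0.93. Cxcl16, the transmembrane ligand of Cxcr6, was at -2.13 in tumor 6, where the next tumor was at 0.50. A second Cxcl16 probe gave 0.01 in tumor 6.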

How the results depend on the processing

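The count of 6 members called higher was 1 with the swapped arrays alone (Cxcr4), 1 within tumors 1 to 4 (Ccl4) and 1 within tumors 5 to 8 (Xcr1). Over all genes these fits called 907 of 20175, 428 of 19727 and 128 of 20043 higher, where the main fit called 1354 of 20323. The members' count was 4 to 8 when each tumor was left out in turn, beside 652 to 1773 over all genes. The count of 2 called lower was 1 under median centring, with Feature Extraction's log ratios, in the authors' value table, on the first arrays alone and with slide as a block (Cx3cr1 each time), and 1 with the swapped arrays alone (Xcr1). It was 0 by limma within tumors 1 to 4 and within tumors 5 to 8, where 1 and 2 members were lower at an unadjusted p under 0.05, and 1 to 3 with each tumor left out. Over all genes, 544 of 19727 and 178 of 20043 were called lower within these tumors. The swapped arrays alone called 738 of 20175 lower, and leaving out each tumor gave 1301 to 2743. Within-slide and swapped fits hold 4 arrays each. Ccl2 and Cxcl14 each kept their call under 22 of 25 alternatives, Ccl4 under 23, Cx3cr1 under 21, Cxcr4 under 19, Ccl5 under 18, Ccl27 under 11 and Ccl20 under 10 of 24. The mean of Xcr1 reversed to -1.19 with the swapped arrays alone. First arrays without tumor 3 or 6 were alternatives chosen after seeing the data. Median centring moved the median of all genes from -0.02 to 0.16, and the share of higher among called genes from 38.7% to 71.3% (49.1% in the value table). Over all genes, 1354 calls were higher and 2144 lower, and 2402 and 965 under median centring. No paired analysis was possible because the series has 1 group of tumors against a pool. Signal limited 10 tested members that were not well above background in both channels on every array (Ccl1, Ccl20, Ccl21c, Ccl28, Ccr1, Ccr3, Ccr9, Cxcl2, Cxcl5 and Cxcl15), and Ccr8, Ccr10 and Ccr1l1, which were not tested.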
